A study of Homo sapiens with 4 samples.

Results

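The genes described here are 10 genes of the endoplasmic reticulum (ER) that fold secreted and membrane proteins or sense their misfolding. They are the chaperones *HSPA5*, *HSP90B1*, *CALR* and *PDIA4*, the co-chaperones *DNAJB9* and *DNAJC3*, the degradation factor *HERPUD1*, and the stress factors *XBP1*, *ATF6* and *ERN1*. They were taken by symbol from a fixed list that was chosen with earlier results of these data known. All 10 were found among the 16813 genes listed in at least 1 library and among the 13148 genes tested. The comparison asks how the osimertinib-resistant line differs from the line it was derived from. RNA was sequenced from PC9 cells, a lung adenocarcinoma line with an activating *EGFR* mutation, and from PC9OR cells, its osimertinib-resistant derivative, in 2 biological replicates of each. GEO's labels give PC9 cells the phenotype control, PC9OR cells the phenotype osimertinib resistant, and both lines the genotype WT. Both were grown in the same RPMI medium with fetal bovine serum, and neither the labels nor the methods say whether osimertinib was in the medium when RNA was taken. Since 1 resistant line was studied, what belongs to resistance and what belongs to other changes in that line cannot be told apart.

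Proteins that enter the secretory pathway fold in the ER lumen with the help of Hsp70 and Hsp90 chaperones, sugar-binding chaperones and disulfide isomerases. When unfolded protein builds up, the sensors ATF6, IRE1 (encoded by *ERN1*) and PERK (encoded by *EIF2AK3*) start the unfolded protein response. IRE1 cuts a short piece out of the *XBP1* messenger, and the shifted reading frame then encodes an active transcription factor. ATF6 moves to the Golgi, where proteases release its transcription factor domain. Both factors switch on chaperone and degradation genes through the ER stress element (ERSE), in which a CCAAT box and a CCACG box are set apart by a fixed spacer.

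The ERSE is shown first because it is a sequence feature that several of these genes share. The genes were listed as unfolded protein response genes, and the ERSE is a known control element of such genes. Its presence in some of them therefore describes the list and is no independent result. The letters searched were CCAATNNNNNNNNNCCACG for the ERSE and ATTGG and CCACG with 1 base of any kind between them for its shorter form, ERSE-II, on both strands, from 250 bases before to 50 bases after each RefSeq start site. Capitals mark the fixed letters of the motif. Each sequence reads along the gene's own strand, so a motif on the opposite strand appears as its reverse complement.
*HSPA5* ERSE, chr9:128003665-128003693, minus strand: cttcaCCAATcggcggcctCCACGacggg
*HSP90B1* first ERSE, chr12:104323989-104324017, plus strand: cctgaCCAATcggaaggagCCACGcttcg
*HSP90B1* second ERSE, on the opposite strand, chr12:104324094-104324122, plus strand: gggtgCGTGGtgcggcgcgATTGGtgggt
*CALR* ERSE, on the opposite strand, chr19:13049193-13049221, plus strand: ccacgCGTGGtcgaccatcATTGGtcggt
*XBP1* ERSE, chr22:29196586-29196614, minus strand: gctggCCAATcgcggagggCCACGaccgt
*HERPUD1* ERSE-II, chr16:56965932-56965952, plus strand: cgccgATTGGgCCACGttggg

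The promoter sequences were those of RefSeq, and the positions came from an exact match of each promoter to GRCh37. All 10 genes had a promoter in the table. The ERSE ended 48 bases before the start site in *HSPA5*, 34 bases before it in *XBP1* and 207 bases before it in *CALR*. *HSP90B1* held a pair of them, ending 176 and 71 bases before its start site. The exact ERSE letters were found in 4 of the 10 genes, against 25 of 27305 genes in the table, or 0.0916%. ERSE-II was found in 1 of the 10 genes and in 19 of all genes in the table, or 0.0696%. A shorter motif that ATF6 and XBP1 can also bind, TGACGTG, was found in 0 of the 10 genes and in 2.40% of all genes in the table. A match of letters is a description of the sequence and does not show that a factor was bound in these cells.

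In PC9OR cells the lumenal chaperones *HSPA5*, *HSP90B1* and *CALR* and the stress sensor *ERN1* were lower than in PC9 cells. No gene of the 10 passed the test in the other direction. A gene was called where edgeR's quasi-likelihood test, run across all genes, gave a Benjamini-Hochberg adjusted p under 0.05. By that rule 36.4% of all genes tested were called in either direction. Of the 10 genes, 4 were lower in PC9OR cells, against 20.8% of all genes tested, and 0 were higher, against 15.6%. Since earlier results were known when the list was chosen, these shares only describe the genes. An unadjusted p under 0.05 also gave 0 higher, as did DESeq2 and limma. The median log2 fold change of the 10 genes was -0.21, beside 0.01 for all genes tested. In 7 of the 10 genes both PC9OR libraries lay below both PC9 libraries, which held for 38.2% of all genes tested. In 1 of the 10, *HERPUD1*, both lay above, which held for 39.6%. More than 2-fold change with an adjusted p under 0.05 was reached by 1 of the 10, *ERN1*, against 11.6% of all genes lower and 6.13% higher by that rule. More than 2-fold change with an adjusted p under 0.001 in edgeR's test was reached by 0 of the 10 and by 0 of all genes. That limit depended on the tool, since DESeq2's Wald test put 1735 genes past it, *ERN1* as the 1 among the 10, and limma 0. In edgeR 1003 genes changed more than 2-fold with an unadjusted p under 0.001, *ERN1* among them. In bulk RNA, fewer cells with a transcript and less transcript per cell cannot be told apart.

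**Figure D1:**
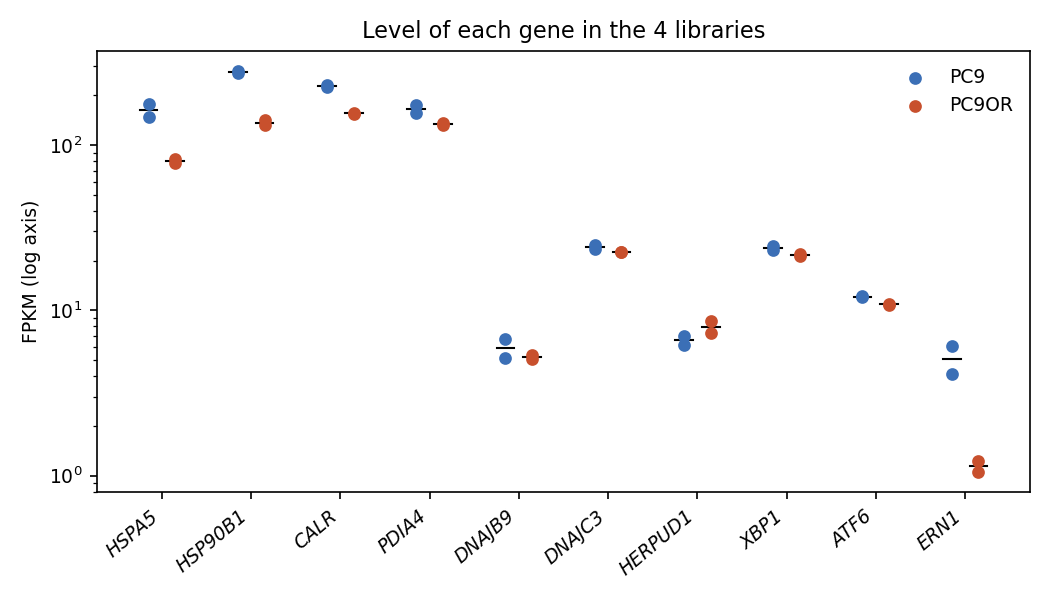
FPKM of the 10 genes on a log axis, with 1 point per library (PC9 blue, PC9OR orange) and a black line at the mean of each line of cells. *HSPA5*, *HSP90B1*, *CALR* and *ERN1* are separated between the lines. The points of *PDIA4*, *XBP1*, *ATF6* and *HERPUD1* do not overlap either, with *HERPUD1* higher in PC9OR cells, though these genes did not pass the test. The points of *DNAJB9* overlap. Those of *DNAJC3* lie close together, at 23.4 and 24.8 FPKM in PC9 and 22.4 and 22.5 FPKM in PC9OR cells.

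*HSPA5* encodes BiP, the Hsp70 chaperone of the ER lumen, which also holds the stress sensors inactive when little unfolded protein is present. Its place in GRCh37 is chromosome 9, positions 127997132 to 128003661, minus strand. As CPM (reads of the gene scaled to library size by the TMM method), it reached 971 and 828 in PC9 replicates 1 and 2 and 439 and 471 in PC9OR replicates 1 and 2. The groups were apart by more than the spread within either of them. The mean was 899 ± 101 CPM (SD, n = 2) in PC9 and 455 ± 23.2 CPM (SD, n = 2) in PC9OR cells. The log2 fold change was -0.98 ± 0.130 (SE), with an adjusted p of 0.00913 in edgeR's quasi-likelihood test, a level 1.98-fold higher in PC9 cells.

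*HSP90B1*, on chromosome 12 from 104323885 to 104347709, encodes the Hsp90 chaperone of the ER lumen. Its values were 1092 and 1078 CPM in the PC9 replicates and 525 and 572 CPM in the PC9OR replicates. The PC9 libraries were nearly level with each other and far above both PC9OR libraries. The means were 1085 ± 9.99 and 548 ± 33.2 CPM (SD, n = 2 each), a log2 fold change of -0.98 ± 0.109 (SE), with an adjusted p of 0.00683 in edgeR's quasi-likelihood test. The fold was 1.98, as for *HSPA5*, just under a limit of 2-fold. Both genes were just past it with limma on log2(FPKM + 1), at log2 fold changes of -1.01 for *HSP90B1* and -1.005 for *HSPA5*.

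*CALR* encodes calreticulin, a calcium-binding chaperone of the lumen that recognises sugar chains on new glycoproteins. It lies on chromosome 19 from 13049392 to 13055303. It was at 582 and 576 CPM in PC9 and at 400.3 and 409.5 CPM in PC9OR cells, again without overlap. The decrease was smaller than for *HSPA5* and *HSP90B1*, with a log2 fold change of -0.52 ± 0.102 (SE), with an adjusted p of 0.0199 in edgeR's quasi-likelihood test and a 1.43-fold higher level in PC9 cells.

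*PDIA4*, a disulfide isomerase of the lumen on chromosome 7 from 148700154 to 148725754, did not pass the test. Its values were 627 and 712 CPM in PC9 and 561 and 556 CPM in PC9OR cells. Both PC9OR values lay below both PC9 values, but the PC9 libraries were further apart from each other than the nearest PC9 and PC9OR libraries. It had a log2 fold change of -0.26 ± 0.117 (SE), with an adjusted p of 0.133 in edgeR's quasi-likelihood test. It passed with PC9 replicate 1 or 2 left out (adjusted p = 0.00842 and 0.0392 in the same test), where the remaining PC9 library was assumed to vary like the PC9OR libraries.

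Of the 4 calls, 3 were lost without 1 or other of the PC9OR libraries. Without PC9OR replicate 1, *HSPA5* and *HSP90B1* had adjusted p-values of 0.0628 and 0.0569 and *CALR* had 0.265, which left *ERN1* as the 1 gene called. Without PC9OR replicate 2, *CALR* had an adjusted p of 0.246 and 3 genes were called (edgeR's quasi-likelihood test in each case). The log2 fold changes moved little, from -1.11 to -0.87 for *HSPA5*, from -1.04 to -0.92 for *HSP90B1* and from -0.54 to -0.49 for *CALR* over the 4 fits that each left out a library. A fit without a PC9OR library took the spread between replicates from the PC9 pair alone.

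The difference between the lines followed transcript length across all genes, and so did the difference between the PC9 replicates. The rank correlation with length over the 13148 genes, which are not independent replicates, was -0.34 for PC9OR against PC9, -0.40 between PC9 replicates 2 and 1, and -0.01 between the PC9OR replicates. Fits with a smooth offset for length, or for length and GC content, were set beside the others for that reason. With length offsets the log2 fold changes were -0.80 for *HSPA5*, -0.94 for *HSP90B1* and -0.64 for *CALR*. With offsets for length and GC content they were -0.76, -1.09 and -0.48. All 3 genes kept an adjusted p under 0.05 in both fits.

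**Figure D2:**
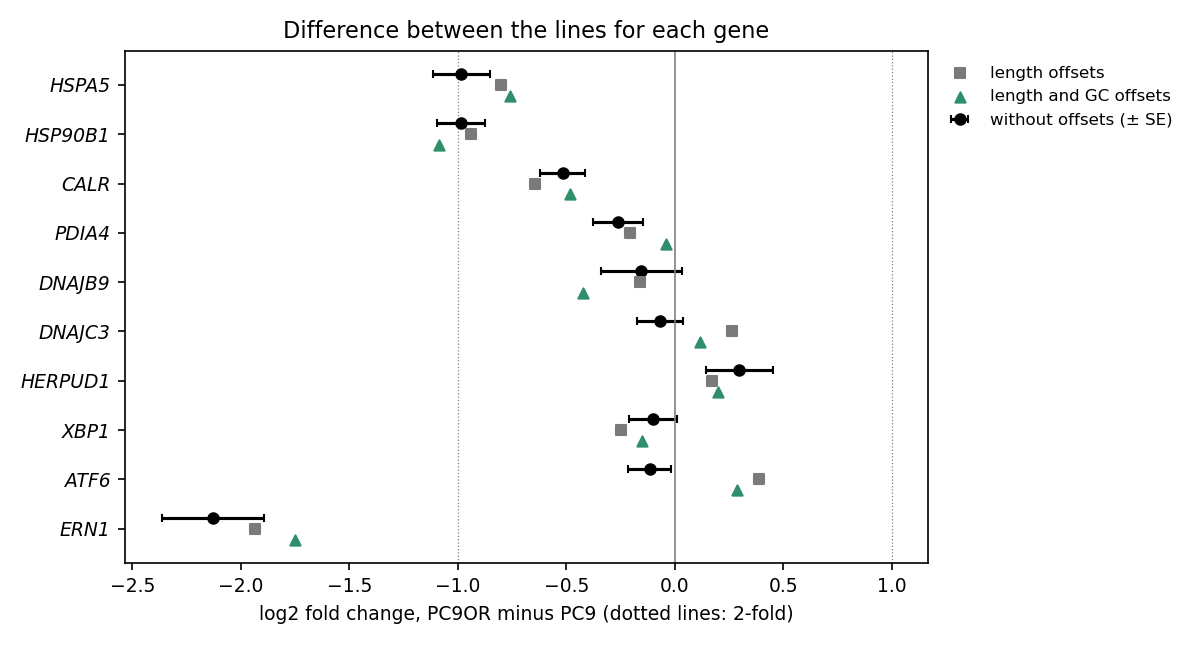
log2 fold change of PC9OR minus PC9 for the 10 genes without offsets (black circles, bars of 1 standard error), with length offsets (grey squares) and with length and GC offsets (green triangles). *ERN1*, *HSPA5*, *HSP90B1* and *CALR* stay left of 0 in all 3 fits, while *ATF6* and *DNAJC3* change side.

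Per length, the chaperones were the most abundant of the 10 genes in both lines. In the deposited FPKM values, the mean level in PC9 cells was 276 for *HSP90B1*, 227 for *CALR*, 165 for *PDIA4* and 163 for *HSPA5*. The PC9 libraries of *PDIA4* (156 and 174 FPKM) and *HSPA5* (178 and 148 FPKM) overlapped, so these neighbours had no clear order. In PC9OR cells *CALR* came first at 155 FPKM, above *HSP90B1* at 137 and *PDIA4* at 135, whose libraries overlapped. *HSPA5* followed at 80.4 FPKM. *HSPA5* stood at position 234 and 349 by FPKM among the genes of the PC9 libraries and at position 765 and 725 in the PC9OR libraries. The 10 genes together held 0.300% and 0.251% of the summed FPKM in the PC9 libraries and 0.138% and 0.142% in the PC9OR libraries. The summed FPKM itself was larger in PC9OR cells, 413521 and 410202 against 307648 and 357089, which lowers these shares.

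The sensors did not move together. *ERN1* encodes IRE1, a kinase and ribonuclease of the ER membrane, on chromosome 17 from 62116440 to 62208179 on the minus strand. It had 788 and 668 expected counts in the PC9 libraries and 222 and 193 in the PC9OR libraries. That corresponded to 33.6 and 23.2 CPM in PC9 and 6.93 and 6.03 CPM in PC9OR cells. The PC9 libraries differed from each other by more than the PC9OR libraries did, but both were well above them. The log2 fold change was -2.13 ± 0.237 (SE), with an adjusted p of 0.00683 in edgeR's quasi-likelihood test, a 4.37-fold higher level in PC9 cells. *ERN1* was called in all 15 alternative fits, with log2 fold changes from -2.39 to -1.49.

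*ATF6*, on chromosome 1 from 161736088 to 161947364, was near the same level in both lines. It had 128 and 131 CPM in PC9 and 118 and 121 CPM in PC9OR cells. The values did not overlap, but the log2 fold change was -0.12 ± 0.101 (SE), with an adjusted p of 0.395 in edgeR's quasi-likelihood test. At 7546 bases *ATF6* has the longest transcript of the 10, and the offsets for length turned its log2 fold change to 0.39 (adjusted p = 0.0600). The third sensor, *EIF2AK3*, is not one of the 10 and was looked up after the values of the others were seen. It had 40.6 and 45.1 CPM in PC9 and 39.4 and 33.2 CPM in PC9OR cells, a log2 fold change of -0.24 (adjusted p = 0.220, edgeR's quasi-likelihood test).

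*XBP1*, the substrate of IRE1, lies on chromosome 22 from 29190543 to 29196585 on the minus strand. Its level was 55.3 and 59.0 CPM in PC9 and 52.0 and 54.7 CPM in PC9OR cells. These values lay close together, and the log2 fold change of -0.10 ± 0.112 (SE), with an adjusted p of 0.507 in edgeR's quasi-likelihood test was within its error. Of the 4 genes with an ERSE it was the 1 not called.

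The piece that IRE1 removes from *XBP1* is shown because the deposited files hold a weighted transcript length that its removal could change. In the annotation, 1 transcript of *XBP1* lacks 26 bases, chr22:29192116-29192141 of GRCh37, that lie inside an exon and inside the coding sequence of other transcripts. The stretch chr22:29192096-29192161 reads as follows on the minus strand, with the 26 bases in capitals. Because the bases that follow the piece repeat its beginning, 6 other placements of the gap would give the same spliced sequence.
*XBP1* piece with flanks: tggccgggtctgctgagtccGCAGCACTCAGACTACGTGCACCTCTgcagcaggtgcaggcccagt

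The files give *XBP1* a transcript length that is weighted by the use of 2 RefSeq transcripts, and this weighted length differed between the lines. It was 1801.41 and 1796.40 bases in PC9 replicates 1 and 2 and 1811.26 and 1810.17 bases in PC9OR replicates 1 and 2. Both PC9OR libraries were longer than both PC9 libraries, by 8.76 bases at the nearest. The means were 1798.91 ± 3.54 and 1810.72 ± 0.771 bases (SD, n = 2 each), a difference of 11.8 bases. Among 7209 tested genes with several transcripts and unequal lengths, 20.6% were longer in both PC9OR libraries than in both PC9 libraries.

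The lengths of the individual RefSeq transcripts are not in the files used here. If the pair differs by the 26-base piece only, the range of 14.9 bases over the 4 libraries bounds the share of the short, spliced form. It would be between 37.9% and 80.7% in PC9 replicate 1 and between 57.2% and 100% in PC9 replicate 2. In PC9OR cells it would be at most 42.8% in replicate 1 and between 4.19% and 47.0% in replicate 2. On the same assumption the mean share would be 45.4 percentage points lower in PC9OR than in PC9 cells. These shares are estimates that divide reads between nearly identical transcripts, with 1297 to 1750 expected counts for the gene per library. With 2 libraries a line, an exact permutation test of this value could not reach 0.05, and none was run.

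**Figure D3:**
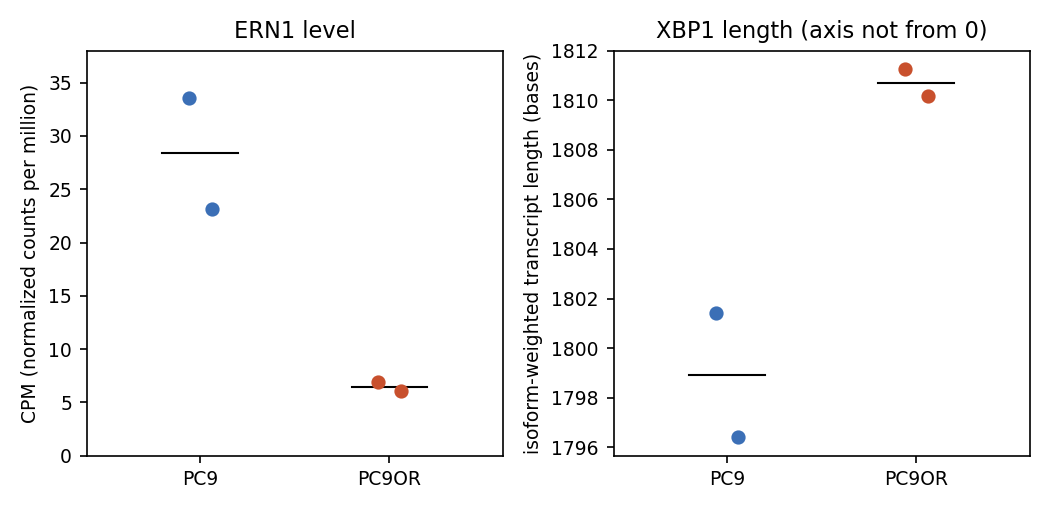
Left, *ERN1* in CPM, and right, the weighted transcript length of *XBP1* in bases, with 1 point per library and a line at the mean. *ERN1* is lower in both PC9OR libraries, and the *XBP1* length is 8.76 bases or more above that of the PC9 libraries.

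The co-chaperones and the degradation factor did not pass the test. *DNAJB9*, a BiP co-chaperone on chromosome 7 from 108210311 to 108215294, had 17.5 and 23.5 CPM in PC9 and 18.9 and 18.1 CPM in PC9OR cells. Both PC9OR values lay between the PC9 values, with a log2 fold change of -0.15 ± 0.186 (SE), with an adjusted p of 0.540 in edgeR's quasi-likelihood test. It was -0.42 with offsets for length and GC content (adjusted p = 0.0431 from the same test), and 0.058 without PC9 replicate 2.

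*DNAJC3*, a lumenal co-chaperone that binds unfolded protein, lies on chromosome 13 from 96329393 to 96447242. It had 182 and 197 CPM in PC9 and 179 and 183 CPM in PC9OR cells, which overlap. The log2 fold change was -0.07 ± 0.106 (SE), with an adjusted p of 0.646 in edgeR's quasi-likelihood test.

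*HERPUD1*, a membrane protein that helps to assemble the complex for ER-associated degradation, lies on chromosome 16 from 56966054 to 56978776. It had 17.7 and 16.1 CPM in PC9 and 22.3 and 19.2 CPM in PC9OR cells. It was the 1 gene of the 10 with a positive log2 fold change, 0.30 ± 0.155 (SE), with an adjusted p of 0.181 in edgeR's quasi-likelihood test. Its weighted length, over 3 transcripts, was 1920.01 ± 2.40 bases in PC9 and 1918.78 ± 4.03 in PC9OR cells (SD, n = 2 each), with overlapping values.

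*HSPA5* and *HSP90B1* had nearly the same pattern over the 4 libraries. Likeness to *HSPA5* was measured as the distance between log2 CPM values centred on each gene's mean. Of 1304 genes within 4-fold of its mean level, *QKI*, *EIF4EBP2* and *KIF1C* were nearest, at distances of 0.045, 0.060 and 0.073. All 3 were lower in PC9OR cells, *EIF4EBP2* and *KIF1C* with log2 fold changes of -0.96 and -0.93. *HSP90B1* was at a distance of 0.151, in position 26, and *CALR* at 0.490, in position 207. With 4 libraries in 2 groups this likeness mainly orders genes by their difference between the lines.

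Beyond the 10 genes, 143 other genes of ER folding, degradation, stress sensing, protein import and export, and of mitochondrial folding were listed, and 140 were tested. Of these, 37 were lower in PC9OR cells, or 26.4% against the 20.8% of all genes tested, and 8 were higher, or 5.71% against 15.6%. Their median log2 fold change was 0.02, near that of all genes. With offsets for length and GC content 29 were called higher, or 20.7% against 22.4% of all genes in that fit, and 44 lower, or 31.4% against 20.2%.

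**Figure D4:**
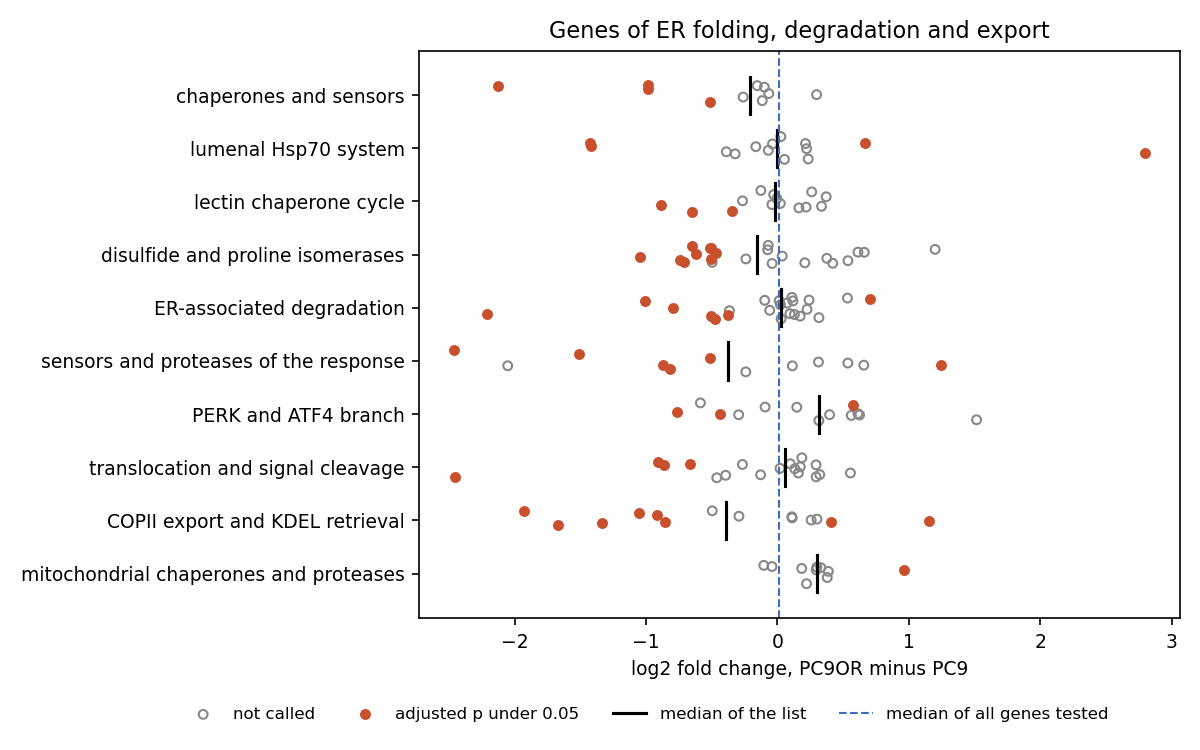
log2 fold change of PC9OR minus PC9 for each tested gene of the 10 lists, with filled points for an adjusted p under 0.05, black bars at list medians and a dashed line at the median of all genes tested, 0.01. The disulfide and proline isomerases hold 9 genes called lower and 0 called higher, and the mitochondrial list holds 1 called higher and 0 lower. Of all genes tested, 20.8% were called lower and 15.6% higher.

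Among 14 other genes of the lumenal Hsp70 system, 2 were lower and 2 were higher, or 14.3% each. Of all genes tested, 20.8% were lower and 15.6% higher. *HYOU1*, which exchanges the nucleotide of BiP, had 529.5 and 429 CPM in PC9 and 182 and 176 CPM in PC9OR cells, a log2 fold change of -1.42 (adjusted p = 0.00579, edgeR's quasi-likelihood test). *SEC63*, a membrane J protein that brings BiP to the import channel, also fell by 1.43 on the log2 scale. Both remained called with offsets for length and GC content, at -0.96 and -1.16. The gene that rose most was *SDF2L1*, a lumenal partner of BiP, at 11.1 and 17.3 CPM in PC9 and 111 and 87.7 CPM in PC9OR cells. Its log2 fold change of 2.80 (adjusted p = 0.00533 from the same test) was the largest increase among the tested genes of all these lists. *SDF2L1* lies on chromosome 22 from 21996591 to 21998588 and *HYOU1* on chromosome 11 from 118914899 to 118927938. Whether their neighbours on the chromosome changed with them was not tested here. *SDF2*, a relative of *SDF2L1* on chromosome 17, rose by a log2 fold change of 0.67.

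Of 22 tested disulfide and proline isomerases and their oxidases, 9 were lower, or 40.9% against 20.8% of all genes tested. In the other direction 0 were higher, against 15.6% of all genes. *P4HB*, the classical protein disulfide isomerase, had 431 and 403 CPM in PC9 and 252 and 246 CPM in PC9OR cells, a log2 fold change of -0.74 (adjusted p = 0.0104, edgeR's quasi-likelihood test). *FKBP11*, a prolyl isomerase of low abundance, fell by 1.05 on the log2 scale. An unadjusted p under 0.05 gave 4 higher, DESeq2 2 and limma 1. Under the length and GC offsets 11 were lower and 4 higher, and without either PC9OR library 0 were lower. *PDIA6*, which carries an ERSE and was looked up for that reason, had a log2 fold change of 0.38 and did not pass the test.

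In the lectin chaperone cycle, 0 of 14 genes were higher, against 15.6% of all genes tested. As for genes lower in PC9OR cells, there were 3, or 21.4%, near the 20.8% of all genes. They were *EDEM1* and *EDEM2*, which trim sugars of misfolded glycoproteins, with log2 fold changes of -0.89 and -0.65, and *CANX*, which encodes calnexin, the membrane relative of calreticulin. *CANX* had a log2 fold change of -0.35 (adjusted p = 0.0493, edgeR's quasi-likelihood test), and with length and GC offsets it was no longer called. In that fit, where 22.4% of all genes were higher and 20.2% lower, 6 genes of this list were higher and 2 lower. Without offsets an unadjusted p under 0.05 gave 2 higher, DESeq2 2 and limma 0.

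Of 23 tested genes listed under ER-associated degradation, 6 were lower, or 26.1% against 20.8% of all genes tested. Among the 6 was *STT3A*, with a log2 fold change of -0.79. It and *STT3B*, also on this list, encode subunits of the enzyme that adds sugar chains to new proteins. In the other direction 1 was higher, or 4.35% against 15.6%. *SYVN1*, the ubiquitin ligase of the pathway, had 47.3 and 25.3 CPM in PC9 and 7.87 and 7.78 CPM in PC9OR cells. The PC9 libraries were apart from each other, yet both were well above the PC9OR libraries, and the log2 fold change was -2.21 (adjusted p = 0.0110, edgeR's quasi-likelihood test). *NPLOC4*, a partner of the VCP ATPase that extracts substrates from the membrane, fell by 1.01 on the log2 scale. *NGLY1*, which removes sugar chains from extracted proteins, rose by a log2 fold change of 0.70.

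Among 12 tested genes of the other sensors and their proteases, 5 were lower and 1 was higher, or 41.7% and 8.33%. Of all genes tested, 20.8% were lower and 15.6% higher. *CREB3L2*, a membrane-bound transcription factor related to ATF6, had 135 and 96.4 CPM in PC9 and 20.3 and 21.7 CPM in PC9OR cells, a log2 fold change of -2.46 (adjusted p = 0.00471, edgeR's quasi-likelihood test). *MBTPS2*, one of the Golgi proteases that cut ATF6, fell by 1.51 on the log2 scale. *BLOC1S1*, a messenger that IRE1 can cut, rose by a log2 fold change of 1.24, and by 0.71 with offsets for length and GC content. In the PERK and ATF4 branch 1 of 13 genes was higher (7.69%), *TRIB3* at 0.57, and 2 were lower (15.4%), *EIF2AK1* at -0.77 and *PPP1R15B* at -0.44. The last was not called with those offsets. The median log2 fold change of this list was 0.32, beside 0.01 for all genes tested. At an unadjusted p under 0.05 in edgeR's test 3 of its genes were higher and 3 lower. That added *ATF4* at 0.40 and *DDIT3* at 0.56 to those higher and *EIF2AK2* at -0.59 to those lower, none of them called. Neither *EIF2AK1* nor *EIF2AK2* encodes PERK.

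For protein import, 4 of 18 genes were lower, or 22.2% against 20.8% of all genes tested. In the other direction 0 were higher, against 15.6% (0 at an unadjusted p under 0.05, and 0 with DESeq2 and limma). The lowest log2 fold changes were -2.46 for *SRPRA*, a subunit of the receptor for the signal recognition particle, and -0.91 for *TRAM2*. *SRPRA* lies on chromosome 11 from 126132833 to 126139039. *TRAM2* was not called with length and GC offsets. For export in COPII vesicles and retrieval of lumenal proteins, 6 of 14 genes were lower and 2 higher, or 42.9% and 14.3%. The coat gene *SEC31A* fell by 1.93 and *SEC16A*, which marks exit sites, by 1.67 on the log2 scale, while *SEC13* rose by 0.41 and *KDELR3* by 1.15. With offsets for length and GC content *SEC16A* had a log2 fold change of -0.78, and with length offsets *SEC13* was not called. *KDELR2*, chosen after its values were seen because it returns KDEL-tailed chaperones such as BiP to the ER, had 252 and 265 CPM in PC9 and 123 and 127 CPM in PC9OR cells, a log2 fold change of -1.05 (adjusted p = 0.00563, edgeR's quasi-likelihood test). Folding genes of the mitochondrion served as another compartment. Of 10 such genes 0 were lower, against 20.8% of all genes tested. The count lower was also 0 at an unadjusted p under 0.05 and with DESeq2 and limma. In the other direction 1 was higher, or 10% against 15.6% of all genes. It was *HSPE1*, with a log2 fold change of 0.96, or 0.32 under the length and GC offsets. In this list the number called higher was 3 (30%) with DESeq2 and with length offsets, against 18.6% and 20.2% of all genes in those fits. With length and GC offsets it was 4 (40%), against 22.4% of all genes.

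The ERSE was also followed beyond the chosen genes. Of all genes tested, 20.8% were lower in PC9OR cells and 15.6% higher. Of 25 genes with the exact letters in a promoter, 15 were tested. Of these, 5 were lower and 0 were higher, with a median log2 fold change of -0.22. The genes called were *HSPA5*, *HSP90B1* and *CALR*, already reported above, and *CANX* and *SYNPO*. The other 10 tested genes with the ERSE did not pass, *XBP1* and *PDIA6* among them. Of 16 tested genes with ERSE-II, 4 were lower and 4 higher, with *HYOU1* at -1.42 and *SDF2L1* at 2.80 among them. These genes include some of the 10 above and are too few for more than a description.

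The sums of expected counts ran from 23201307 to 32203998 per library, and 3 counts, taken as the smallest value the depth can show, corresponded to between 0.0936 and 0.128 CPM, far below every gene of the 10. These limits cover counting error only. Fitted alone, the PC9 pair had a biological coefficient of variation of 0.241 and the PC9OR pair 0.104. Of the epithelial markers checked, 6 of 6 were above 1 FPKM in all libraries, with summed FPKM from 2576 to 2987 in PC9 and from 5511 to 5720 in PC9OR cells. The 4 keratins carried the higher sum, while *EPCAM* averaged 147 and 143 FPKM and *CDH1* was at 69.5 and 49.5 FPKM in PC9 and 22.02 and 20.07 FPKM in PC9OR cells. Of 4 lung lineage markers *EGFR* alone was, at 153 and 96.8 FPKM in PC9 and 40.9 and 37.5 FPKM in PC9OR cells, while *NKX2-1* and *NAPSA* were at or near 0 and *SFTPB* was listed in no library. Fibroblast markers summed to at most 0.180 FPKM, and the blood cell marker *PTPRC* was at most at 0.02 FPKM. The endothelial marker *CDH5* was at 6.08 and 4.10 FPKM in PC9 and 0.86 and 0.80 FPKM in PC9OR cells, with *PECAM1* and *VWF* at or near 0, and *CD68* was at 6.36 and 5.12 against 2.75 and 2.49 FPKM. The part of any other cell type in the results was not tested.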

How the data were processed

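For each of the 4 libraries the authors deposited expected counts (estimated reads per gene, not normalized), FPKM values (scaled by length and library size) and an isoform-weighted transcript length in bases. SOAP is named for read filtering in the paper, and the submitters' processing notes name Bowtie2 2.2.5, RSEM 1.2.12 and GRCh37 without their roles. Libraries were made with a stranded kit. Each file lists only genes above 0, so an absent gene was set to 0. Entrez identifiers were matched to RefSeq symbols for 99.7% of genes. Positions came from the GENCODE annotation lifted to GRCh37.

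Expected counts were rounded and tested with edgeR 4.0.16 in R 4.3.3 (TMM, filterByExpr, glmQLFit and glmQLFTest), which left 13148 genes, with Benjamini-Hochberg adjustment over all of them. The standard error is the log2 fold change divided by the square root of its F statistic. The study used DEGseq, which was not used here. Replicates were not paired, since no pairing is stated. The correlation of same-numbered deviations was 0.064. The replicates were not the same library (chi-square of 65.5 per degree of freedom in PC9 and 9.93 in PC9OR). Alternatives used DESeq2 1.42.0, limma 3.58.1 on log2 FPKM and smooth length and GC offsets from mgcv 1.9.3, with GC content known for 96.7% of genes. The fits were tested on simulated data with the same spread in both lines, which did not check the unequal spread of the 2 lines here.

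The 10 genes and the lists were chosen with earlier results of these data known. Beside the 10, the rule named in each list up to 2 genes with the largest increase and up to 2 with the largest decrease among those with an adjusted p under 0.05, and the 3 genes nearest *HSPA5* in pattern with a mean of at least 10 CPM. Other genes are said to have been looked up.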

Additional observations from a re-analysis of the deposited data

How the results depend on the processing

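For the 10 genes, the count of 4 lower and 0 higher was the same with DESeq2 size factors, library totals, DESeq2's Wald test, no filter, at least 10 counts in every library, both limma-trend fits on FPKM, the replicate block and length offsets, and it was 5 and 0 with length and GC offsets. Length offsets with the replicate block added 1 gene called higher, *ATF6*, at 0.40 (adjusted p = 0.0185 in edgeR's quasi-likelihood test, and 0.0185 to 0.861 over all its alternatives). With libraries left out in turn, where a lone library was assumed to vary like the other line, the count lower ran from 1 (without PC9OR replicate 1) to 5 (without either PC9 replicate). More than 2-fold change left 1 gene lower at an adjusted p under 0.05 and 0 at 0.001. Nothing states that equal replicate numbers mark shared cultures, so they were not taken as pairs. The replicate block gave 2593 genes higher and 2946 lower of all genes, and moved the other pathway genes called higher from 8 to 15. Signs changed for *ATF6* (0.39 with length offsets, 0.29 with length and GC offsets, 0.40 with length offsets and the replicate block), for *DNAJC3* (0.26, 0.12 and 0.27 in the same fits) and for *DNAJB9* (from -0.36 to 0.058 with libraries left out, the latter without PC9 replicate 2).

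Of all genes, 2056 were called higher and 2734 lower. The higher count was 3302 with length offsets and the replicate block, 806 at more than 2-fold and 0 at an adjusted p under 0.001, and 525 to 3932 with libraries left out. The lower count was 1523, 0 and 1177 to 3929 in the last 3 of these. Of the other pathway genes, 8 were higher and 37 lower. The higher count was 16 with DESeq2's Wald test, 20 with length offsets, 29 with length and GC offsets, 37 with length offsets and the replicate block, 3 at more than 2-fold, 0 at the stricter p, and 2 to 47 with libraries left out. The lower count was 12 at more than 2-fold, 0 at the stricter p, and 10 to 47 with libraries left out. Of the fits that left out a library, those without a PC9OR library gave the smallest counts. In those fits the spread between replicates could be taken from the PC9 pair alone. Fitted alone, that pair had a biological coefficient of variation of 0.241, against 0.104 for the PC9OR pair. Whether this set the counts was not tested.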
